A study of Microtus ochrogaster with 40 samples.

Results

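Ribosomal protein genes encode the proteins of the cytoplasmic ribosome. They were taken from the gene names of the deposited tables: every Rpl or Rps name followed by a digit, and Rpsa, without the Rps6k kinases and without names that end in the letter l and a digit. The rule gave 25 of the 19130 genes listed, of which 11 encode proteins of the large subunit and 9 proteins of the small subunit. It also kept 4 paralogs (Rps27l, Rpl10l, Rpl3l and Rpl39l) and Rps19bp1, which is named for binding the small-subunit protein Rps19 and is not itself a ribosomal protein. The rule dropped 10 kinase genes and 2 names with the letter l and a digit. Rplp0, Rplp1, Rplp2, Rps6, Rps27a, Rpl41, Rpl13a and Rpl36al were not analysed here.

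A ribosome is built in the nucleolus from ribosomal RNA and equimolar ribosomal proteins, and the finished subunits work in the cytoplasm. The mRNAs of these proteins begin with a terminal oligopyrimidine tract, through which growth signals control their translation together, and they are among the most abundant cytoplasmic mRNAs. A nucleus holds only the part of these transcripts that is still nuclear, together with any cytoplasmic RNA that comes along with it. Because ribosomal protein genes have many near-identical processed copies in mammalian genomes, the authors' counting could split or discard reads, so that the level of a single member is uncertain.

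The counts come from nuclei of the nucleus accumbens, a part of the ventral striatum, of 40 prairie voles (Microtus ochrogaster), with 1 library per animal. Before collection each animal spent 16 days with a newly met partner: an opposite-sex mate or a same-sex peer. Sex and partner together gave 4 groups: mates (11 females, 11 males) and peers (8 females, 10 males). The labels give neither strain nor age, and every animal had a partner. Libraries carry running numbers, and neighbouring numbers form 20 couples (11 of a female mate and a male mate animal, 9 of 2 peers of a sex), but the labels do not say that neighbours had lived together.

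After filtering, 178387 nuclei remained, 1767 to 7666 per library, with a median of 657 to 2176 UMIs (counted molecules) per nucleus. Of 171078 distinct barcode sequences, 21545 occurred in more than 1 library, and the most that a pair of libraries shared was 146. The library male mate 2 stood apart with the lowest median depth, and female peer 1 and female peer 2, which form a couple, had the highest ribosomal protein and mitochondrial levels. The main results over animals are therefore also given without female peers 1 and 2, and a few without male mate 2. Of the nuclei, 18.1% were D2 and 16.3% D1 medium spiny neuron-like, the projection neurons that define this tissue. Another 13.5% were glutamate neuron-like, a type of the neighbouring cortex rather than of the striatum. Unnamed clusters held 12.2%.

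Together the 25 genes gave 691349 UMIs, or 0.212% of all UMIs and a level of 2119 CPM (counts-per-million of all UMIs). Rpsa, which was first known as a laminin receptor and sits in the small subunit, ranged from 163 CPM in female mate 2 over a median of 197 to 357 CPM in female peer 2. Rpl8, a core protein of the large subunit, ranged from 116 over 149 to 266 CPM, and Rpl15, also of the large subunit, from 112 over 143 to 262 CPM. Rpl10a ran from 101 over 148 to 217 CPM. Rpl32 ran from 94.1 over 133 to 255 CPM. For these 5 genes the highest library was female peer 2, except for Rpl10a, where it was female peer 1.

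The paralogs gave few UMIs. Rps27l, a paralog of Rps27 that responds to p53, was counted at 7.35 CPM in the lowest, 13.8 in the median and 17.3 in the highest animal. Rpl10l, a germline copy of Rpl10 on which sperm formation depends, gave 50 UMIs in all nuclei, and Rpl3l, a copy of Rpl3 expressed in heart and skeletal muscle, gave 12. Rpl39l, another copy expressed in the germline, gave 0 UMIs, which allows a level of up to 0.00920 CPM by 3 counts over all nuclei (counting error only). These last 3 genes did not pass the filter on low counts, so that 22 of the 25 members were tested in the fits over all nuclei and over classes.

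The levels differed widely between classes of nuclei, which were named from marker genes and built without the members. Vascular-like nuclei stood above all others: their summed level was 5011 CPM in the lowest animal, 7766 in the median and 11927 in the highest (mean 7909 ± 1674, SD, n = 33). Immature neuron-like nuclei followed with 2027, 3183 and 4704 CPM (3250 ± 648, n = 38), and microglia-like nuclei with 1960, 2453 and 3754 CPM (2551 ± 442, n = 38). The range of the vascular-like nuclei did not overlap with that of any other tested class.

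At the low end, astrocyte-like nuclei held 1210, 1623 and 2363 CPM (1631 ± 256, n = 39) and glutamate neuron-like nuclei 1373, 1634 and 2446 CPM (1711 ± 269, n = 40). An unnamed cluster of 8976 nuclei with glutamate neuron markers, at a median of 3981 CPM, is not part of the latter class. D2 medium spiny neuron-like nuclei held 1513, 1736 and 2567 CPM (1805 ± 232, n = 40) and the D1 class 1477, 1844 and 2392 CPM (1846 ± 197, n = 40). Between these lay the eccentric medium spiny neuron-like class (median 1937 CPM), oligodendrocyte precursors (1936), other GABA neurons (2062), oligodendrocytes (2160), somatostatin interneurons (2190) and cholinergic interneurons (2370). Neighbours in this order overlapped in their ranges.

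**Figure D1:**
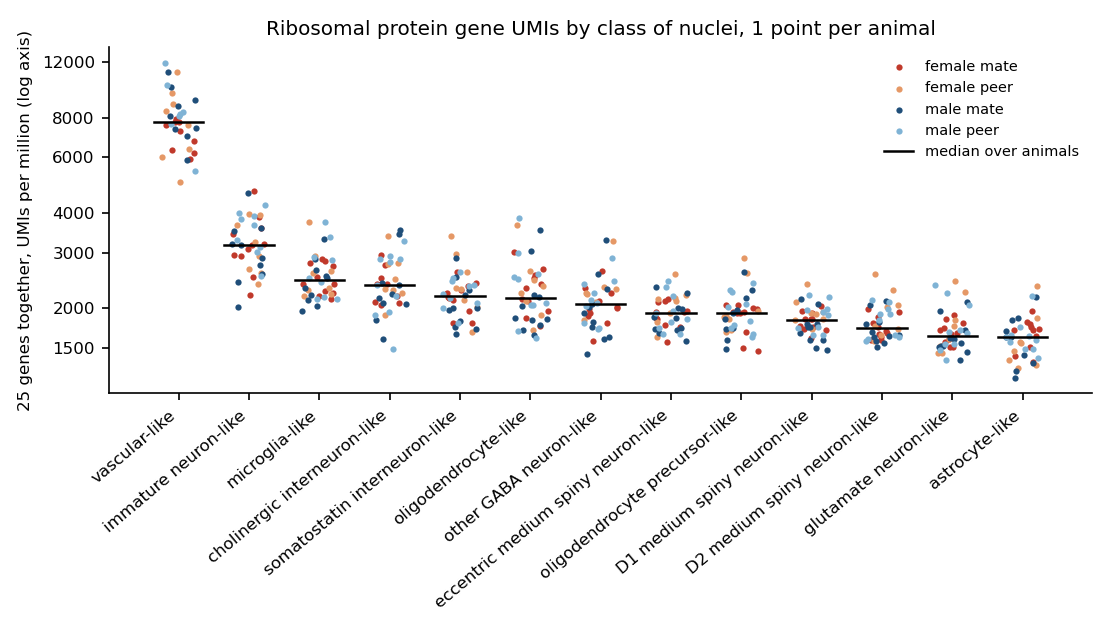
Summed level of the 25 genes (CPM, log axis) in each of 13 classes of nuclei, with 1 point per animal coloured by group and a line at the class median. Vascular-like nuclei lie at 5011 to 11927 CPM, above every other class, and the 4 groups are intermixed within each class.

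Within an animal the order was partly fixed. The vascular-like level was the higher in 33 of 33 animals against the D1 class, with a median ratio of 4.12, and in 32 of 32 against immature neuron-like nuclei, with a ratio of 2.5. Immature neuron-like nuclei exceeded microglia-like nuclei in 33 of 37 animals (ratio 1.24) and the D1 class in 38 of 38 (ratio 1.69). The D2 class exceeded the D1 class in 10 of 40 animals, with a median ratio of 0.966. Microglia against cholinergic interneurons (19 of 35 animals, ratio 1.02) and eccentric medium spiny neurons against oligodendrocyte precursors (20 of 39, ratio 1.00) did not separate. These counts describe sums over the members and carry no test.

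Classes were tested gene by gene with edgeR's quasi-likelihood test, each class against the mean of the other 12 with the animal as a block and Benjamini-Hochberg adjustment over 10527 genes. For every class but the vascular-like one, that mean includes the vascular-like class, where the members were highest. A lower call is thus relative to this mean. Most genes differ between classes, so the first count of each class stands beside the share of all genes called. In vascular-like nuclei 21 of the 22 members were higher and 1 lower, against 33.4% of all genes higher and 40.8% lower. The members' median log2 difference was 1.93, while that of all genes was -0.15.

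Rps4x, the X-linked copy of a small-subunit protein, was counted in vascular-like nuclei at 320, 574 and 891 CPM (lowest, median, highest of 33 animals) against 38.0, 61.3 and 122 CPM in astrocyte-like nuclei, without overlap. The log2 difference from the other classes was 2.49 ± 0.06 (SE, adjusted p = 1.65e-160).

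Rpsa reached 254, 876 and 1322 CPM in vascular-like and 138, 194 and 260 CPM in D1 nuclei (1.96 ± 0.05, adjusted p = 9.23e-153). The lowest vascular-like animal lay within the D1 range. Rpl8 (2.04 ± 0.06, adjusted p = 7.27e-135) and Rpl15 (1.99 ± 0.06, adjusted p = 7.69e-135) rose by about as much. The single member that fell was Rps19bp1, at 0, 43.1 and 137 CPM against 20.1, 60.7 and 78.2 CPM in D1 nuclei (-0.38 ± 0.14, adjusted p = 0.0115), with overlapping ranges.

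Other genes of the translation machinery were counted by list in the vascular-like class, to be read against the 33.4% of all genes higher and 40.8% lower there. The ribosomal proteins under other names (Fau and Rack1) were higher in 2 of 2, with a median log2 difference of 1.76. Of 7 translation factors with the same kind of mRNA start, 6 were higher (median 0.47). Of 22 ribosome biogenesis genes 3 were higher and 11 lower (median -0.27). Of 62 mitochondrial ribosomal proteins, which are encoded in the nucleus and serve a separate ribosome, 20 were higher and 17 lower (median 0.11). The 13 genes of the mitochondrial genome, whose RNA is not nuclear, were all higher (median 1.40). On a list of 14 abundant cytoplasmic mRNAs of neurons, drawn up for neurons and not for vascular cells, 10 were higher and 4 lower (median 0.59). In CPM, mitochondrial genes summed to a median of 13908 in vascular-like nuclei and 3687 in the D1 class. The part of this RNA in the result was not tested.

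The vascular-like class was uneven when its nuclei were pooled by which marker UMIs they held, a description made after the data had been seen. The 182 nuclei with UMIs of mural cell or fibroblast markers only (Pdgfrb, Vtn, Kcnj8, Dcn, Col1a2) held 4274 CPM of the members (95% Poisson interval 3947 to 4621, counting error only), within the range of the immature neuron-like animals. The 734 with endothelial markers only (Cldn5, Flt1, Pecam1) held 7454 CPM (7266 to 7645), the 524 with both 9483 CPM (9314 to 9655) and the 41 with neither 6895 CPM (6050 to 7825). Depth differed between the pools, with medians of 668.5, 875, 1546.5 and 722 UMIs per nucleus in that order, and a marker UMI does not settle the type of a nucleus.

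Among the leading genes of immature neuron-like nuclei were Igfbpl1, Mki67, Dlx1, Dlx2, Cdca7 and Bub1. The marker list of this class includes Mki67 and Top2a, genes of dividing cells, so dividing nuclei were not told apart from immature neurons. In this class 10 of 22 members were higher and 0 lower, against 27.5% and 37.4% of all genes. With library totals in place of TMM factors 19 were higher and 0 lower, and of all genes 4313 were higher and 2489 lower. That scaling moved the median of all genes from -0.14 to 0.14. The members' median stood 0.30 above that of all genes under both scalings. A change of scaling moves all genes of a class by nearly the same amount. This difference was thus bound to stay, here and in the classes below, and is no check of the result. Rpl10a, a large-subunit protein near the exit of the ribosome's tRNA path, led with 73.5, 314 and 597 CPM (lowest, median, highest of 38 animals) against 81.7, 126 and 180 CPM in the D2 class (0.58 ± 0.06, adjusted p = 1.6e-19). Rpsa (0.31 ± 0.06), Rpl10 (0.44 ± 0.09) and Rps4x (0.38 ± 0.08) were also higher, each with an adjusted p of at most 9.99e-06. Mitochondrial genes were at a median of 6901 CPM in these nuclei.

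In microglia-like nuclei 12 members were higher and 1 lower, against 31.2% and 42.9% of all genes; with library totals the split was 9 to 2 (2961 to 5027 genes). The members' median stood 0.37 above that of all genes under both scalings. Rpl10, a large-subunit protein that joins late in assembly, was counted at 80.4, 132 and 207 CPM against 23.1, 62.2 and 97.1 CPM in astrocyte-like nuclei (0.57 ± 0.08, adjusted p = 2.26e-11). Rpl35 rose as well (0.50 ± 0.07). Rpl22, a large-subunit protein dispensable for translation as such and known from T cell development, went the other way, at 0, 42.5 and 93.7 CPM against 42.0, 58.1 and 77.8 CPM in the D2 class (-0.50 ± 0.11, adjusted p = 3.35e-05), with wide overlap.

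Oligodendrocyte-like nuclei had 16 members higher and 2 lower, against 40.6% and 39.7% of all genes. This split depended on scaling: with library totals 4 were higher and 7 lower (2773 and 6017 of all genes), and the median of all genes moved to -0.33. Measured against all genes, the members' median stood 0.32 higher under both. Rpsa was at 129, 244 and 522 CPM against 86.4, 144 and 270 CPM in astrocyte-like nuclei (0.50 ± 0.04, adjusted p = 1.38e-27). Rpl10a was lower (-0.17 ± 0.05, adjusted p = 0.000716). The 13 mitochondrial genes were all higher in this class (median 1.26).

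**Figure D2:**
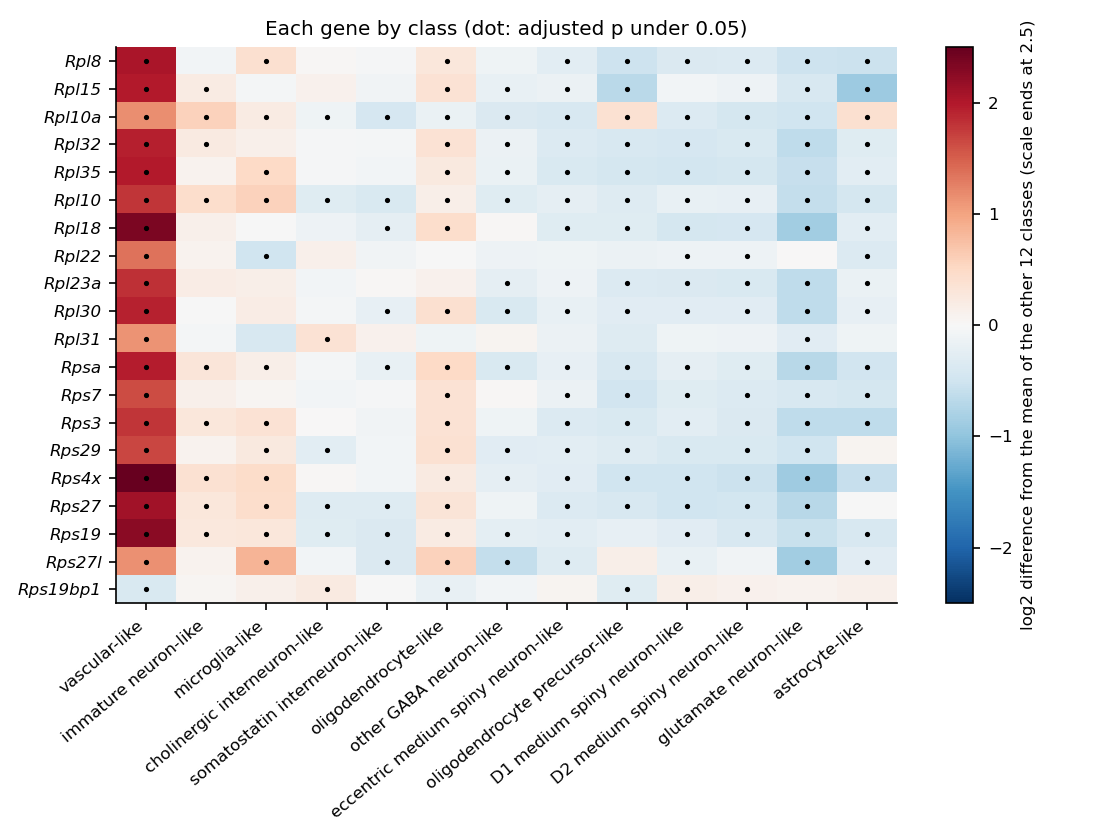
Log2 difference of each of 20 members (rows) in each of 13 classes (columns) from the mean of the other 12 classes, with a dot where the adjusted p is under 0.05. The vascular-like column is high for every member shown except Rps19bp1, which is low; Rpl10a runs against the other members in the astrocyte-like and oligodendrocyte precursor-like columns.

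The large classes of neurons had lower levels. In glutamate neuron-like nuclei 20 members were lower and 0 higher, against 40.0% and 40.9% of all genes, with a median of -0.58. Rps4x was at 42.6, 62.5 and 126 CPM there (-0.90 ± 0.05, adjusted p = 6.42e-62), overlapping the range of the D1 class (52.0, 78.4 and 119 CPM). Rpl18 (-0.87 ± 0.05), Rpsa (-0.69 ± 0.04) and Rps3 (-0.64 ± 0.04) fell by similar amounts. The 13 mitochondrial genes were all lower too (median -0.61). In the D2 class 19 members were lower and 1 higher (39.2% and 40.9% of all genes), and in the D1 class likewise 19 and 1 (39.0% and 41.0%), with medians of -0.37 and -0.33. The higher member was Rps19bp1 in both, by 0.11 ± 0.05 in the D2 class (adjusted p = 0.0338) and 0.15 ± 0.05 in the D1 class (adjusted p = 0.00331); the D2 call was lost with library totals (0.07, adjusted p = 0.192). The eccentric class had 19 lower and 0 higher (38.9% and 37.0% of all genes), with Rpl10a the lowest p (-0.40 ± 0.04).

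Interneurons lay between. Pvalb was among the leading genes of the somatostatin interneuron-like cluster. No parvalbumin interneuron class was named, so this class may hold both types. Somatostatin interneuron-like nuclei had 9 members lower and 0 higher (36.9% and 38.4% of all genes), among them Rpl10a at -0.42 ± 0.04. Their summed level nevertheless exceeded that of the D2 class in 40 of 40 animals and of the D1 class in 38 of 40. It exceeded microglia-like nuclei in 8 of 38 and vascular-like nuclei in 0 of 33. Against the D1 class, other GABA neuron-like nuclei were higher in 34 of 39 animals and cholinergic ones in 34 of 37. Other GABA neuron-like nuclei had 14 lower and 0 higher (36.5% and 34.2%), or 9 lower and 1 higher with library totals (3088 and 4227 genes). In cholinergic interneuron-like nuclei, whose large cell bodies supply acetylcholine to the striatum, 2 members were higher and 5 lower (34.0% and 32.9%). With library totals 7 were higher and 3 lower (4751 and 2394 genes), and without male mate 2 there were 4 of each (3991 and 3037 genes). Rpl31, a large-subunit protein at the exit of the nascent chain, was at 5.76, 28.6 and 60.0 CPM in them (0.35 ± 0.12, adjusted p = 0.00444). Against all genes, the members' median was -0.03 under both scalings.

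Among the macroglia, 1 member ran against the rest. Astrocyte-like nuclei had 17 members lower and 1 higher (37.9% and 44.2% of all genes), and oligodendrocyte precursor-like nuclei also 17 and 1 (33.9% and 35.1%). In both the higher member was Rpl10a: 120, 194 and 297 CPM in astrocyte-like nuclei (0.40 ± 0.04, adjusted p = 7.55e-22) and 126, 220 and 444 CPM in precursors (0.38 ± 0.05, adjusted p = 2.18e-12), against 70.9, 134 and 177 CPM in the D1 class. Rpl15 showed the reverse, at 33.4, 73.8 and 149 CPM in astrocyte-like nuclei (-0.90 ± 0.05, adjusted p = 3.9e-51) and 46.0, 108 and 190 CPM in precursors (-0.68 ± 0.07, adjusted p = 6.89e-21), against 108, 145 and 200 CPM in the D1 class. The members' median in astrocyte-like nuclei stood 0.34 below that of all genes under both scalings. The ranges of neighbouring classes overlapped for both genes.

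The members also differed in how far their levels ranged over classes, as a description. Among the 21 members with at least 20 CPM, the highest class mean exceeded the lowest 8.59 times for Rps4x, 7.60 times for Rpl15, 7.29 times for Rpl18 and 6.27 times for Rps19, a protein mutated in Diamond-Blackfan anaemia. The narrowest ranges were 1.78 times for Rps19bp1, 2.96 for Rpl10a, 3.04 for Rpl31, 3.34 for Rpl22 and 3.72 for Rps29, a small-subunit protein with a zinc-binding site. Among the tested classes, vascular-like nuclei held the highest mean for 20 of the 21, and cholinergic interneuron-like nuclei for Rps19bp1. The gene that is not a ribosomal protein was thus the flattest over classes.

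Depth of the nucleus was examined within animals and classes. Nuclei of a class were split at their animal's median UMI count into shallower and deeper nuclei, in the 5 largest classes. In the D1 class the shallower nuclei held 1287, 1685 and 2607 CPM of the members and the deeper 1519, 1921 and 2309 CPM, and the shallower were the higher in 5 of 40 animals (median ratio 0.877). Gene by gene, 14 members were lower and 2 higher in the shallower nuclei, against 28.6% and 32.7% of all genes. Rpl15 had a median of 125 CPM in the shallower and 161 in the deeper nuclei and was the higher in the shallower in 4 of 40 animals (-0.38 ± 0.03, adjusted p = 3.02e-19). Rpsa (-0.29 ± 0.03), Rps3 (-0.34 ± 0.04), Rpl8 (-0.29 ± 0.04) and Rps4x (-0.33 ± 0.05) fell as well. Mitochondrial genes were at a median ratio of 0.79.

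The eccentric class resembled this, with 11 of 20 tested members lower and 0 higher in the shallower nuclei (24.6% and 25.3% of all genes) and a median ratio of 0.893. In the D2 class 8 were lower and 1 higher (26.4% and 30.0%), or 8 and 4 with library totals (1972 and 3227 of 8952 genes). Rps3, a small-subunit protein at the mRNA entry that also acts in DNA repair, fell by 0.38 ± 0.05 on the log2 scale there (adjusted p = 8.09e-12). The higher member was Rps19bp1, with a median of 66.7 CPM in the shallower and 52.4 in the deeper nuclei, higher in 30 of 40 animals (0.22 ± 0.06, adjusted p = 0.000617).

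In glutamate neuron-like and astrocyte-like nuclei the split at the class median called few members. For glutamate neuron-like nuclei 1 of 21 tested members was higher in the shallower nuclei and 2 lower (20.9% and 19.6% of all genes), with a median ratio of 0.998. The higher member was Rps29, at a median of 102 against 82.9 CPM and in 32 of 39 animals (0.28 ± 0.05, adjusted p = 3.35e-06). It lost its call when nuclei were split within animal and cluster (0.07, adjusted p = 0.182). The count of members depended on the split: the shallowest against the deepest 25% of nuclei gave 11 higher and 0 lower, with 803 of 7139 genes higher and 743 lower. A split within animal and cluster gave 0 higher and 16 lower, with 2474 of 8989 genes higher and 2154 lower. These 16 went in the main direction of the D1, D2 and eccentric classes. Clusters of the glutamate neuron-like class differed in both depth and level. In 1 the medians were 699 UMIs and 3131 CPM, in the others 2339 and 1660, and 2824 and 1531. The part of this mixture in the result was not tested. For astrocyte-like nuclei 1 of 16 members, Rpsa, was lower (-0.20 ± 0.07, adjusted p = 0.0262) and 0 higher (8.78% and 7.88%). Without female peer 1 and female peer 2 the count was 0, with Rpsa at -0.18 (adjusted p = 0.0569). The difference between classes in these shifts was not tested.

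Over fixed bins of UMIs per nucleus the relation was not monotonic in the neurons. In the D2 class the median over animals was 2720 CPM in nuclei of 500 to 1000 UMIs, 1620 at 1000 to 2000, 1710 at 2000 to 4000 and 2321 at 4000 to 8000. The mitochondrial genes ran alongside, with 7000, 3535, 3319 and 6357 CPM. Glutamate neuron-like nuclei gave 3361, 1756, 1429 and 1851 CPM over the same bins, which mix clusters of unlike depth and level. By the mitochondrial share of the nucleus the D2 class rose from 1470 CPM at up to 0.25% over 1721 (0.25 to 0.5%), 2284 (0.5 to 1%) and 3095 (1 to 2%) to 5252 CPM at 2 to 5%, a bin with 5 animals. Glutamate neuron-like nuclei rose from 1314 to 4397 CPM, and astrocyte-like nuclei from 1411 CPM in the lowest bin to 1992 CPM at 1 to 2%. These bins were chosen after the data had been seen and are descriptions.

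**Figure D3:**
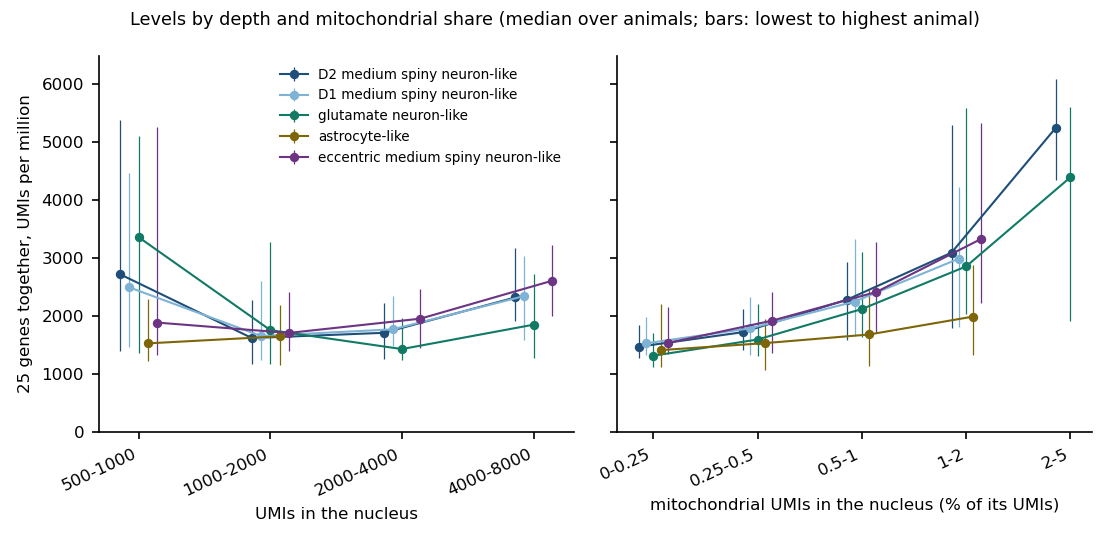
Summed level of the members (CPM) by UMIs per nucleus (left) and by mitochondrial percent of the nucleus (right) in the 5 largest classes; points are medians over animals and bars run from the lowest to the highest animal. The curves dip in the middle of the depth range for the D1, D2, eccentric and glutamate neuron-like classes and rise with the mitochondrial share in all 5.

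Across animals, the members summed over all nuclei ranged from 1619 CPM in male mate 2 to 3372 CPM in female peer 2. In the lowest, median and highest animal, female mates had 1772, 2052 and 2601 CPM (2075 ± 233, n = 11) and female peers 1903, 2049 and 3372 CPM (2328 ± 560, n = 8; without female peers 1 and 2, 2045 ± 200, n = 6). Male mates had 1619, 1869 and 2690 CPM (1985 ± 354, n = 11) and male peers 1717, 2025 and 2784 CPM (2133 ± 366, n = 10). All 4 groups overlapped. In these sums over all nuclei, fewer nuclei of a type and less RNA per nucleus cannot be told apart. Female peer 2 was among the 5 highest animals in 12 of 13 classes, at a median ratio of 1.43 to the class median, but in vascular-like nuclei it ranked 20 of 33.

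The animals' levels moved with mitochondrial RNA. Mitochondrial genes ranged from 3225 CPM in male mate 1 to 9535 CPM in female peer 2. Over the 40 libraries, whose points share depth and the makeup of their nuclei, Pearson's r between the members and the mitochondrial genes was 0.831 and Spearman's rho 0.690, and without female peers 1 and 2 they were 0.727 and 0.638. With the share of vascular-like nuclei r was 0.714 (0.636 without female peers 1 and 2). With the median UMI count it was -0.279, which rests on few libraries: it was -0.50 without male mate 2 and -0.077 without female peers 1 and 2. These values are descriptions.

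**Figure D4:**
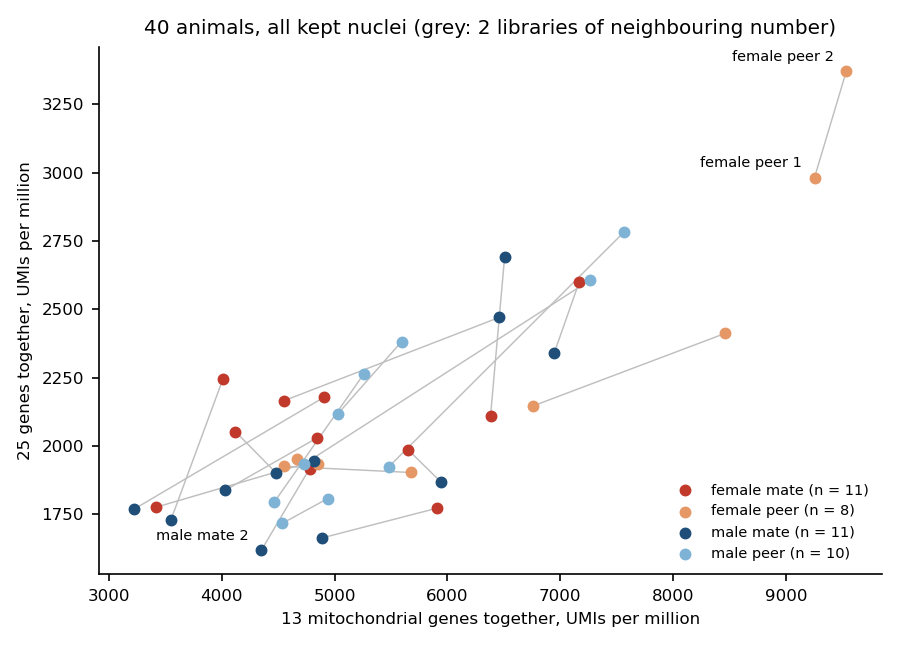
Summed level of the members (CPM) against that of the 13 mitochondrial genes (CPM) over all nuclei, with 1 point per animal coloured by group and grey lines joining neighbouring library numbers. Female peer 1 (2982 CPM) and female peer 2 (3372 CPM) lie apart at the upper right.

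In a fit with 1 mean per group, the slope on the library's median depth called 0 of 22 members (0.919% of all genes called), with 0 members at an unadjusted p under 0.05 and a lowest adjusted p of 0.362 for Rpl8. It also called 0 members in the D2 (0.0567% of all genes), D1 (0.0188%), glutamate neuron-like (0.00%), astrocyte-like (0.177%) and eccentric class (0.0107%), where 2, 0, 1, 8 and 3 members had an unadjusted p under 0.05. The slope on log2 of the library's mitochondrial share called 19 of 22 members, all higher (13.6% of all genes higher), with a median of 0.49 per log2 unit. Without female peers 1 and 2 it called 15, with 1306 of 13824 genes higher. Rpl32 had the lowest p (0.61 ± 0.08, adjusted p = 4.62e-07), before Rpl8 (0.59 ± 0.08) and Rps4x (0.62 ± 0.08). The 13 mitochondrial genes make up that share, so their slopes (median 0.81) follow from its definition. Of the other lists, 13 of 14 genes of abundant cytoplasmic mRNAs of neurons were higher and 1 lower (median 0.52). Higher were also 2 of 2 ribosomal proteins under other names (0.48), 5 of 7 translation factors (0.27) and 29 of 65 mitochondrial ribosomal proteins (0.19). Ribosome biogenesis genes had 3 of 24 higher and 1 lower, with a median of -0.01.

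Within classes the slope called 10 of 22 members in the D2 class (4.03% of all genes higher), 6 in the D1 class (2.04%), 11 in glutamate neuron-like nuclei (6.13%), 7 in the eccentric class (3.17%) and 1 of 20 in astrocyte-like nuclei (1.36%), and every called member was higher. Without female peers 1 and 2 the counts were 5, 5, 5, 5 and 0, with 316 of 10695, 155 of 10824, 340 of 10962, 218 of 9485 and 28 of 8267 genes higher. Rpl15 in glutamate neuron-like nuclei had the lowest p of these (0.55 ± 0.08, adjusted p = 4.38e-05), and Rpl32 led in the D2 class (0.38 ± 0.08, adjusted p = 0.00204).

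The pairing type, the study's main comparison, called 0 of 22 members over all nuclei by edgeR's quasi-likelihood test (0.00% of 13717 genes called). At an unadjusted p under 0.05 there were 3 members; DESeq2 called 0 and had 5 at that level. The members' median log2 difference, mate minus peer, was -0.13 with 0 of 22 above 0. It was -0.05 without female peers 1 and 2, and 0.02 with 14 of 22 above 0 when the library's mitochondrial share was a covariate. The members varied together over animals (median pair correlation 0.713). Their signs are thus not separate signals, and no share of all genes stands beside them. Rpl22 had the lowest p: its mean was 62.4 ± 6.8 CPM in female mates, 69.5 ± 9.9 in female peers, 61.9 ± 7.9 in male mates and 68.5 ± 8.7 in male peers, a difference of -0.15 ± 0.06 (adjusted p = 0.683). Rpl35 (-0.17 ± 0.08) and Rps27 (-0.18 ± 0.09) came next, at the same adjusted p. Within females the test called 0 (0.00% of genes; 1 member at p under 0.05) and within males 0 (0.00%), with medians of -0.16 and -0.10.

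Sex called 0 of 22 (0.0219% of genes called), with 0 members at an unadjusted p under 0.05 and 0 called by DESeq2. The median, female minus male, was 0.09 with 21 of 22 above 0. Without female peers 1 and 2 it was -0.00, with 11 above 0. These signs, too, come from genes that varied together and are not separate signals. Rps4x, which lies on the X chromosome in other mammals, had the lowest p (0.18 ± 0.10, adjusted p = 0.632). The interaction of pairing and sex called 0 (0.00%), with 0 members at p under 0.05 and a median of -0.05. A p that misses the threshold does not show that the groups were alike.

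Within the 13 classes, 243 tests of a member in a class gave 0 calls for pairing (0.00% of all tests called), 0 for sex (0.0209%) and 0 for the interaction (0.00%). At an unadjusted p under 0.05 edgeR had 21, 10 and 1 of the 243, and DESeq2 20, 8 and 2 with 0 calls. For pairing the lowest p values included Rpl23a in the D2 class (-0.36 ± 0.11, adjusted p = 0.887), Rps27 in the eccentric class (-0.26 ± 0.09) and Rpl30 in vascular-like nuclei (-0.58 ± 0.21). The largest of these estimates lay in a class of few nuclei.

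Couples of neighbouring library numbers were compared by adding couple terms to the group means. The test called 0 of 22 members, against 290 of 13717 genes (2.11%). At an unadjusted p under 0.05 there were 19 members, given here without the share of all genes at that level. The members varied together over animals (median pair correlation 0.713), so these 19 are not separate signals. The lowest adjusted p values were 0.0516 for Rps4x, 0.0554 for Rpl8 and 0.0687 for Rpsa. DESeq2's likelihood ratio test called 18 members and 2962 genes. Without female peers 1 and 2, edgeR called 0 members and 86 genes and had 3 members at an unadjusted p under 0.05. With the library's mitochondrial share as a covariate it had 5.

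As a description, the intraclass correlation of log2 CPM within couples, after removal of group means, had a median of 0.342 over the 22 members and 0.124 over all genes, and 20 of 22 members lay above the latter. Rps4x had the highest value at 0.49, Rpl8 had 0.46 and Rpsa 0.44, while Rps19bp1 was at -0.03 and Rpl31 lowest at -0.35. Without female peers 1 and 2 the medians were 0.168 and 0.092. In the D2 class they were 0.221 for the members and 0.047 for all genes, with Rpl32 at 0.62 and Rpsa at 0.58, and without that couple 0.193 and 0.045. The D1 class gave -0.03 and 0.03, glutamate neuron-like nuclei 0.02 and -0.02, astrocyte-like nuclei 0.06 and 0.02, and the eccentric class 0.10 and 0.02. The D1, glutamate neuron-like and astrocyte-like values changed side with the setting. For the D1 class the members' median was 0.075 with median depth removed, against 0.030 for all genes. It was -0.10 against -0.03 in glutamate neuron-like and -0.07 against 0.01 in astrocyte-like nuclei without female peers 1 and 2. The difference between classes in these values was not tested.

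Single couples differed widely. Animals of the 9th couple, female peers 3 and 4, had 1934 and 1951 CPM, an absolute log2 ratio of 0.0128, whereas those of the 3rd, male peers 1 and 2, had 1924 and 2784 CPM, a ratio of 0.533. The couple of female peers 1 and 2, both high, differed by 0.177.

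**Figure D5:**
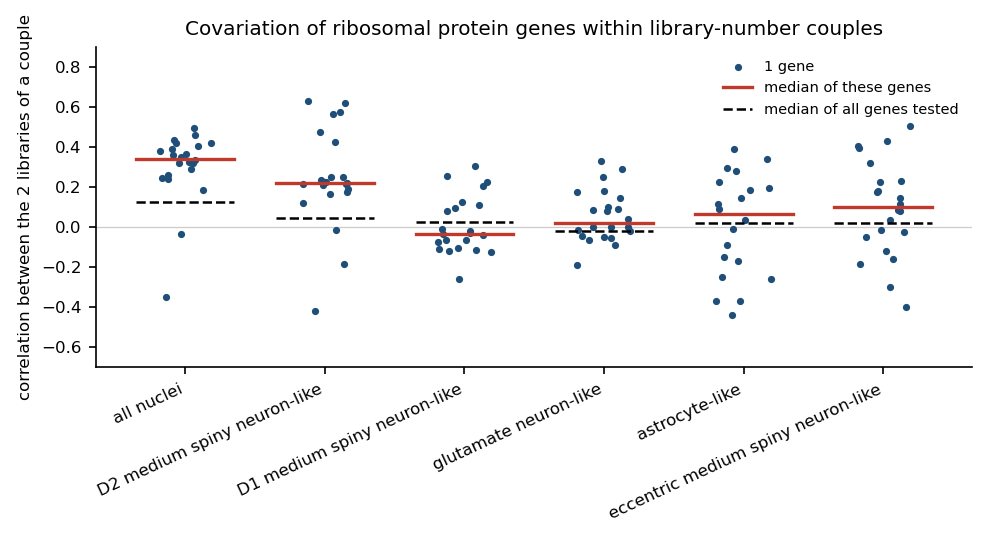
Intraclass correlation within couples for each member (points) over all nuclei and in the 5 largest classes, with the members' median in red and the median of all genes tested as a dashed line. The members' median lies above that of all genes over all nuclei (0.342 against 0.124) and in the D2 class (0.221 against 0.047).

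The members also varied together over the 40 animals. After removal of group means, the median Pearson correlation over the 231 pairs of members was 0.713, with a range of -0.139 to 0.95, while the median over pairs of all genes was -0.00. The members' median was 0.622 without female peers 1 and 2 and 0.706 without the couple of male mate 2. Rpl32 had the highest median correlation with the other members (0.89), before Rpsa (0.88) and Rps4x (0.87), and Rps19bp1 the lowest (0.18). Rps27l (0.44, with 4482 UMIs in all nuclei) and Rpl31 (0.45, with 6779 UMIs) were also low. Within classes the medians over pairs were 0.42 in the D2 class, 0.31 in the D1 class, 0.42 in glutamate neuron-like nuclei, 0.26 in the eccentric class and 0.24 in astrocyte-like nuclei, or 0.37, 0.29, 0.32, 0.23 and 0.18 with female peers 1 and 2 left out. The points share their libraries, depth and makeup of nuclei. Thin counts can lower such a correlation, and their part in these values was not tested.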

How the data were processed

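The deposited files hold raw UMI counts per gene and barcode for each of 40 animals, made by the authors with Cell Ranger 3.1.0 per the submitters' processing notes; genome build and barcode rule are not given in the sources used here. Names of 24 of the 25 members were found among RefSeq symbols (assembly MicOch1.0, names only). Members, lists and tests were chosen with earlier results of these data known.

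Barcodes needed 500 UMIs and at most 5% mitochondrial UMIs; 7608 simulated-neighbour doublets were removed at an assumed 0.8% per 1000 barcodes. Clustering (scanpy 1.11.5, Leiden, 2000 variable genes without members, 30 components, 15 neighbours) used resolution 2.5, chosen after the clusters of resolution 1 and the members' levels in them had been seen, and gave 34 clusters. At resolution 1 there was no immature neuron or other GABA neuron class, and the cholinergic interneuron class (950 nuclei) was not tested. A class name needed 3 markers at a log2 fold of 1 (pseudocount 5 CPM) and markers of other lineages at no more than 0.5 of its own. No other marker list could have more genes among the cluster's leading genes. A cluster far shallower than its libraries also stayed unnamed if none of its own markers was among the leading genes.

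Counts were summed per animal, or per animal and class (at least 20 nuclei, at least 6 animals per group; 40 nuclei for depth splits), and tested with edgeR 4.0.16 (R 4.3.3; quasi-likelihood, TMM, filterByExpr) at an adjusted p of 0.05 over all genes tested. For class contrasts the dispersion was estimated from the class terms alone, without the animal block. Alternatives used DESeq2 1.42.0, limma 3.58.1, other scalings, filters, splits and libraries. In each fit the called members with the 5 lowest p in each direction were eligible to be named, or 3 where none was called; named besides were members with extreme levels or ranges and a fixed set that includes Rpsa, Rps29, Rpl10, Rps4x and the paralogs. The scripts were tested on simulated counts: for the pairing contrast over all nuclei, 98% of genes changed 1.5-fold were recovered, and for the interaction of pairing and sex 46%. For these contrasts the simulation gave every gene the same dispersion and made animals independent. The shares recovered are thus not the power of the tests on the real counts. Values of 2 members are not reported here, although the counts over members include them. Counts of members at an unadjusted p under 0.05 stand without the share of all genes at that level and are not calls. Animals housed as partners may depend on each other.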

Additional observations from a re-analysis of the deposited data

Results flagged for a closer look

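In all, 72 groups of 4 to 10 animals were examined, for the summed level of the members or, over all nuclei, for single named members. Of these, 9 held an animal far from the others, each in a summed level. Chance flags about 1 in 20 groups, but the groups reuse the same animals and are not independent. Groups of more than 10 were not examined. Female peer 2 stood apart within its group in oligodendrocyte-like (3659 CPM), microglia-like (3754 CPM) and other GABA neuron-like nuclei (3260 CPM), and in the shallower D1 (2607 CPM) and astrocyte-like nuclei (2367 CPM). Female peer 1 stood apart in the shallower D2 nuclei, at 5566 CPM against 1918 CPM in its deeper ones, and in the shallower glutamate neuron-like nuclei, at 5168 against 2025 CPM. In both classes its mitochondrial genes ran alongside, at 18183 against 3578 CPM and 15716 against 3602 CPM. Male peer 2 stood apart in astrocyte-like nuclei (2194 CPM) and in their deeper part (2419 CPM).

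Barcodes left out of every comparison also carried the members. The 2148 barcodes above the mitochondrial limit held 8258 CPM, and the 6375 barcodes of male mate 2 under 500 UMIs held 1969 CPM.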

How the results depend on the processing

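Of the alternatives to the main results, 179 stayed near the main value and 11 did not. For counts of called members, near meant within 1.5 times the main count, whatever the direction of the calls. A count of 0 that stayed 0 was near as well. The cholinergic interneuron-like contrast with library totals is thus among the 179, although its split between higher and lower changed sides. The 179 include medians of the within-couple correlation, judged by the SD over members. They also include a repeat of each class contrast that had to be identical, because no member was among the variable genes even when members were allowed. DESeq2 called 18 members for the library-number couple. With library totals the oligodendrocyte-like contrast called 11, the immature neuron-like contrast 19 and the mitochondrial slope in astrocyte-like nuclei 2. For shallower against deeper nuclei, taking the outer 25% gave 11 in glutamate neuron-like and 2 in astrocyte-like nuclei, and a split within animal and cluster gave 16 in glutamate neuron-like nuclei. Without female peers 1 and 2 (chosen after seeing the data) the astrocyte-like depth split called 0, and the mitochondrial slope called 5 in D2, 5 in glutamate neuron-like and 0 in astrocyte-like nuclei. Of the named genes, 3 values reversed: Rpl15 (0.031) and Rps3 (0.054) between the outer 25% of glutamate neuron-like nuclei, and Rpl10a (0.033) in cholinergic interneuron-like nuclei with library totals. The cause was not tested. Another 16 gene values lost their call, among them Rpsa in the mitochondrial slope of the D2 class (adjusted p = 0.0522) and the D1 class (0.0538) without female peers 1 and 2. These 2 slopes were 0.27 and 0.30, against 0.32 in both classes in the main fit.

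Replicate numbers only name animals, though in the mate groups they coincide with the library-number couples. In the mates alone, with the couple as a fixed replicate block, sex called 0 members. With the library-number couple as a random replicate block (limma voom, correlation 0.179), pairing, sex and interaction each called 0 members. Of the tested classes, levels per gene rest on the fewest UMIs of the members in immature neuron-like (7173), microglia-like (7806) and oligodendrocyte precursor-like nuclei (8452).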

Other observations

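Of the 7 clusters without a class name, 5 had at least 20 nuclei in 3 or more animals and are described here. Of these 5, 3 held high levels of the members, while 2 were at a median of 1897 and 1812 CPM, among the D1, D2 and eccentric clusters. A cluster led by mitochondrial genes (1821 nuclei) had a median of 4652 CPM over animals with 20296 CPM of mitochondrial genes. Another unnamed cluster of 8976 nuclei had 3981 CPM with 14650 CPM of mitochondrial genes. Its best list was glutamate neuron, with 6 of 7 markers past a log2 fold of 1. Its leading genes held none of these but Cck, a marker of other GABA neurons. The glutamate neuron-like levels given above leave this cluster out. A cluster with ependymal and astrocyte markers (2655 nuclei) had 3963 CPM with 10282 CPM of mitochondrial genes. Among the glutamate neuron-like clusters, 1 stood at 3131 CPM with 10300 CPM of mitochondrial genes, and 32.5% of its nuclei came from male mate 2, while 2 others stood at 1660 and 1531 CPM. Across 30 clusters, which share their libraries, the members' and the mitochondrial level had a Pearson r of 0.772 and a Spearman rho of 0.810, as a description.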
